A study of Mus musculus with 48 samples.

Results

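Livers of LPS-treated mice were set against livers of control mice at one time of day, Zeitgeber time 9 (ZT9, hours after lights on, late in the light phase), on day 7. The comparison holds 6 of the 48 liver RNA-seq libraries, 3 from LPS mice and 3 from negative controls (NC), taken by the labelled treatment, day and time, and it was described across the 16544 genes, of 29331 in the count table, that passed a filter on low counts. All mice were male and wild type. Mice were assigned at random to the LPS arm, given lipopolysaccharide continuously over 7 days, or to the NC arm. The sources used here give neither the LPS dose or route nor what NC mice received, and no strain or age. Both arms were also sampled at ZT1, ZT5, ZT13, ZT17 and ZT21 of the same day, 30 libraries in all, which serve here to show where the ZT9 difference departs from that at other times. Each group's 3 libraries are biological replicates by their labels, which do not speak of separate animals, so a p-value here reflects spread among libraries that may share a source.

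Lipopolysaccharide is the outer-membrane glycolipid of Gram-negative bacteria. It is sensed through TLR4, a receptor on Kupffer cells, endothelium and hepatocytes, and a first exposure makes the liver secrete acute-phase proteins, while repeated exposure is known to blunt that response. Liver transcription also follows a daily cycle set by the core clock (CLOCK and BMAL1 as activators, PER, CRY and REV-ERB proteins as repressors) and by feeding. Mice are nocturnal, so ZT9 falls late in their rest phase, when they feed little.

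The 6 libraries held 31.0 to 34.0 M counts in LPS livers and 29.95 to 34.6 M in NC livers. Hepatocyte markers summed to 130994 to 157608 CPM (counts relative to library size, with TMM factors) in LPS livers and 138786 to 164585 CPM in NC livers, and Alb, the albumin gene, averaged 72888 ± 9633 CPM in LPS livers and 74277 ± 8780.0 CPM in NC livers (SD, n = 3 each). On the first principal component of the 6 libraries, which carried 29.8% of the variance, the LPS libraries lay at -31.7, -25.5 and -19.4 and the NC libraries at 50.4, 32.7 and -6.60. NC replicate 3 thus lay nearest to the LPS libraries, and it stood alone on the second component at -54.5. Mitochondrially encoded transcripts took 9.72%, 11.6% and 11.4% of counts in LPS libraries and 7.26%, 8.57% and 10.2% in NC libraries, a share whose part in the results below was not tested.

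By edgeR's quasi-likelihood test, fitted on all 36 day-7 libraries with Benjamini-Hochberg adjustment at 0.05, 75 genes differed between LPS and NC livers at ZT9. Of these, 52 were higher in LPS livers, 0.314% of the genes tested, and 23 were lower, 0.139%. Among passing genes averaging at least 1 CPM, the largest rises included the replication-dependent histone genes H4c8, H4c9 and H3c15. The sodium-phosphate cotransporter Slc34a2 and the haem synthesis enzyme Alas1 were also among these rises. The orphan nuclear receptor Nr4a1, the glycosyltransferase Galnt6 and the axon guidance receptor Plxna2 were among the largest falls of such passing genes. In 74 of the 75 the 3 LPS and the 3 NC libraries did not overlap, and 34 differed by at least 1 on the log2 scale. At an unadjusted p under 0.05, 985 genes were higher and 984 lower, 5.95% of the genes tested each way. That share is the background for the counts at an unadjusted p under 0.05 given for lists below. The median log2 change of all genes was -0.02.

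**Figure D1:**
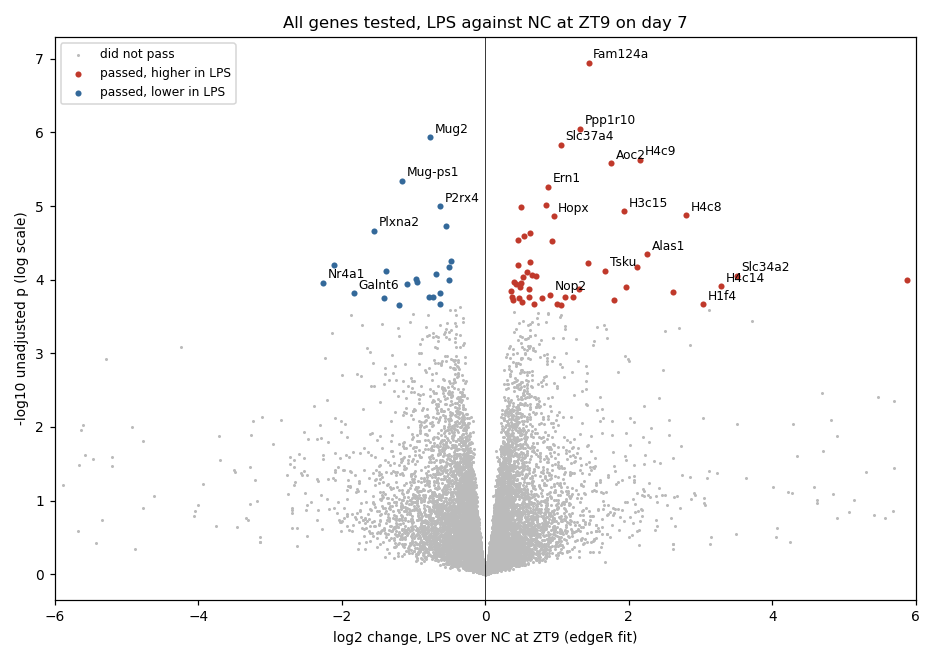
Each point is a gene, with the fitted log2 change of LPS over NC at ZT9 on the x axis and -log10 of the unadjusted edgeR p on the y axis. The 52 genes that passed and were higher in LPS are red and the 23 that passed and were lower are blue; 2 passing genes with no counts in one arm (Pdxp, Gm18840) lie beyond the x limits. Fam124a has the smallest p and Slc34a2 the largest rise among the labelled genes.

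The count of genes changed when single libraries were left out. Each such fit also has a smaller arm, and the part of that in the change was not tested. Leaving out 1 of the 6 ZT9 libraries at a time left between 0 and 68 genes past the threshold, with 0 without NC replicate 2, 3 without LPS replicate 2, 16 without LPS replicate 1, 20 without NC replicate 1, 29 without LPS replicate 3 and 68 without NC replicate 3. Fam124a, Ppp1r10 and Slc37a4 passed in 5 of these 6 fits, and 26 of the 75 passed in none. In the other direction, 394 genes passed once 4 LPS libraries of other times were left out, and all 75 were among them. Of the 394, 216 were higher (1.24% of the genes tested) and 178 lower (1.02%). The 4 libraries stand apart on the first principal component of the 36, at 62.6 (ZT1 replicate 2), 81.8 (ZT13 replicate 2), 63.2 and 72.9 (ZT21 replicates 1 and 3). At ZT21 they are the majority of their group, whose replicate 2 lay at -6.59. Leaving them out changed the shared estimate of spread, the scaling and the filter, so that 17431 genes were tested in place of 16544. Fitted on the 6 ZT9 libraries alone, 67 passed, but only 24 of the 75 were among them, and Nr4a1, Plxna2, Ppp1r10, H4c9 and Tsku were not. DESeq2 called 275, of which 74 were shared, with 164 higher (0.991%) and 111 lower (0.671%).

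Replication-dependent histone genes were the list with the most passing genes. These genes make the bulk of chromatin histones, mainly in S phase, and their messages normally end in a stem-loop in place of a poly(A) tail. Of 29 tested, 6 rose (H4c9, H3c15, H4c8, H4c14, H2bc6 and H1f4) and none fell, against 0.314% and 0.139% over all genes. In 18 of the 29 all 3 LPS libraries lay above all 3 NC libraries, 62.1% of these against 10.4% of all genes tested. The median log2 change of the 29 was 1.41 against -0.02. The list has 47 genes in the count table, and the others did not pass the filter on low counts. A gene can pass that filter through LPS libraries alone, so it can favour members that are high there. With H2ac10, which had no counts in NC libraries, set to its bound (3 counts per NC library), the median was 1.20. DESeq2 called 9 of them.

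The promoters of 3 called genes are shown because these genes rose together and belong to the H4 and H1 families clustered on chromosome 13. Each is the 250 bases upstream of the annotated start (RefSeq, GRCm38.p6), written 5′ to 3′ on the gene's strand. Capitals mark motifs, searched on both strands, which do not overlap one another here. They are the TATA box with the letters TATAAA, the binding sequence of the factor NF-Y with the letters CCAAT, the cAMP response element with the letters TGACGTCA, and the E-box of the clock activators with the letters CACGTG. The windows lie at chr13:23530794-23531043 (plus strand, H4c8), chr13:22041363-22041612 (minus strand, H4c9) and chr13:23622559-23622808 (minus strand, H1f4).
H4c8: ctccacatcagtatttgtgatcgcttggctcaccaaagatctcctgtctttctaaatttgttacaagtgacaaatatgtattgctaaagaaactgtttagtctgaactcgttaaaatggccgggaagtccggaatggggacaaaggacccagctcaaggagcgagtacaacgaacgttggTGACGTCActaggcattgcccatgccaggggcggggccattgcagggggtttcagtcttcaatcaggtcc
H4c9: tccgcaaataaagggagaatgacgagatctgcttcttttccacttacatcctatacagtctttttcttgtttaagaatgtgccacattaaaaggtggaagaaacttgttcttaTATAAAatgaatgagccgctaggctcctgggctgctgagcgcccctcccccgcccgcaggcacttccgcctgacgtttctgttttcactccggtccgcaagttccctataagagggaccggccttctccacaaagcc
H1f4: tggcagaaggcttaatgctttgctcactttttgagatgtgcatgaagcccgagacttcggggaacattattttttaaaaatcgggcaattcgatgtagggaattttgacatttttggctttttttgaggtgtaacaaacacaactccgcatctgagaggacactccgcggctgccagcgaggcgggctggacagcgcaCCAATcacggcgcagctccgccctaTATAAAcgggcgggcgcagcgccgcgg
H4c8 carries only the letters TGACGTCA, H4c9 only TATAAA, and H1f4 both CCAAT and TATAAA. Letters were matched anywhere in the window, without a limit on the distance from the start. In H1f4 TATAAA lies close to the annotated start. In H4c9 it lies near the middle of the window, so there it is a match of letters and is not shown to be a working TATA box. Over the tested histone genes, 13 of 27 windows (48.1%) held TATAAA and 22 (81.5%) held CCAAT, against 7.3% and 35.1% of the 14922 windows of all tested genes with a match. Only 1 of the 27 histone windows held TGACGTCA (3.7%, against 2.31%), and none held CACGTG (against 7.82%). No one of these motifs is in all 3 windows shown.

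H4c8, which encodes histone H4, had 4.49, 6.72 and 2.601 CPM in LPS livers, against 0.795, 0.577 and 0.610 CPM in NC livers. The lowest LPS library lay well above the highest NC library. Its log2 change was 2.79 ± 0.53 (SE; edgeR adjusted p = 0.0164). H4c9, a second H4 gene, had 3.92, 5.77 and 2.32 CPM in LPS livers, against 1.07, 0.549 and 1.07 CPM in NC livers, a log2 change of 2.16 ± 0.37 (edgeR adjusted p = 0.00724). H3c15, which encodes histone H3, had 5.09, 5.06 and 2.46 CPM in LPS livers, against 0.978, 1.15 and 1.16 CPM in NC livers. As for both H4 genes, LPS replicate 3 was the lowest of its group and still above every NC library, and the log2 change was 1.93 ± 0.36 (edgeR adjusted p = 0.0162). H1f4, which encodes a linker histone, had only 1.69, 1.32 and 0.226 CPM in LPS livers, against 0.0611, 0.137 and 0.183 CPM in NC livers, so LPS replicate 3 lay just above the NC range. The linker histone gene H1f2, at a far higher level, had 96.3, 91.2 and 54.4 CPM in LPS livers, against 36.7, 32.3 and 43.2 CPM in NC livers. H1f2 did not pass (log2 change 1.11 ± 0.28, edgeR adjusted p = 0.065) and passed by DESeq2 (adjusted p = 0.00828).

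The histone genes are a family of near-identical copies, and exons of H2bc6 and H1f4 overlap in GENCODE M21, so counts of single members are uncertain. Because the libraries were captured on oligo(dT) beads, the values cover only histone transcripts that such beads retain, and the part of the capture in the result was not tested. Genes of the replication machinery gave no calls. None of 30 DNA replication genes passed by edgeR (1 higher and 2 lower at an unadjusted p under 0.05, 0 by DESeq2), their median log2 change was -0.29, and 6 of 30 lay below all NC libraries (20% against 11.1% of all genes). None of 32 genes of mitosis and G2 passed either (1 higher at an unadjusted p under 0.05, 0 by DESeq2), with a median of -0.51. Their summed level was 81.4, 89.6 and 87.4 CPM in LPS livers, against 209.6, 78.4 and 43.1 CPM in NC livers, so the NC libraries spanned the LPS values.

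Slc34a2 (GRCm38 chr5:53049353-53071664), which imports phosphate with sodium, had the largest rise among passing genes averaging at least 1 CPM, predicted genes left out. It had 8.38, 9.33 and 11.7 CPM in LPS livers, against 0.917, 1.32 and 0.336 CPM in NC livers, and every LPS library was above every NC library. The log2 change was 3.50 ± 0.76 (edgeR adjusted p = 0.0396). Alas1 (chr9:106233455-106247954), the rate-limiting enzyme of haem synthesis and a known output of the clock and of fasting, had 307, 634 and 179 CPM in LPS livers, against 84.4, 103 and 46.2 CPM in NC livers. LPS replicate 2 stood well above the other LPS libraries, the groups did not overlap, and the log2 change was 2.26 ± 0.46 (edgeR adjusted p = 0.0338, and 0.165 in a fit of the 6 ZT9 libraries alone). No other of the 15 haem synthesis genes rose by edgeR, while DESeq2 called Fech, the last enzyme, as lower in LPS livers (log2 change -0.36), and Alad, the second enzyme of the pathway, averaged 118 ± 5.19 CPM in LPS livers and 113 ± 1.71 CPM in NC livers (SD, n = 3 each). The haem list was put together after its values were seen.

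**Figure D2:**
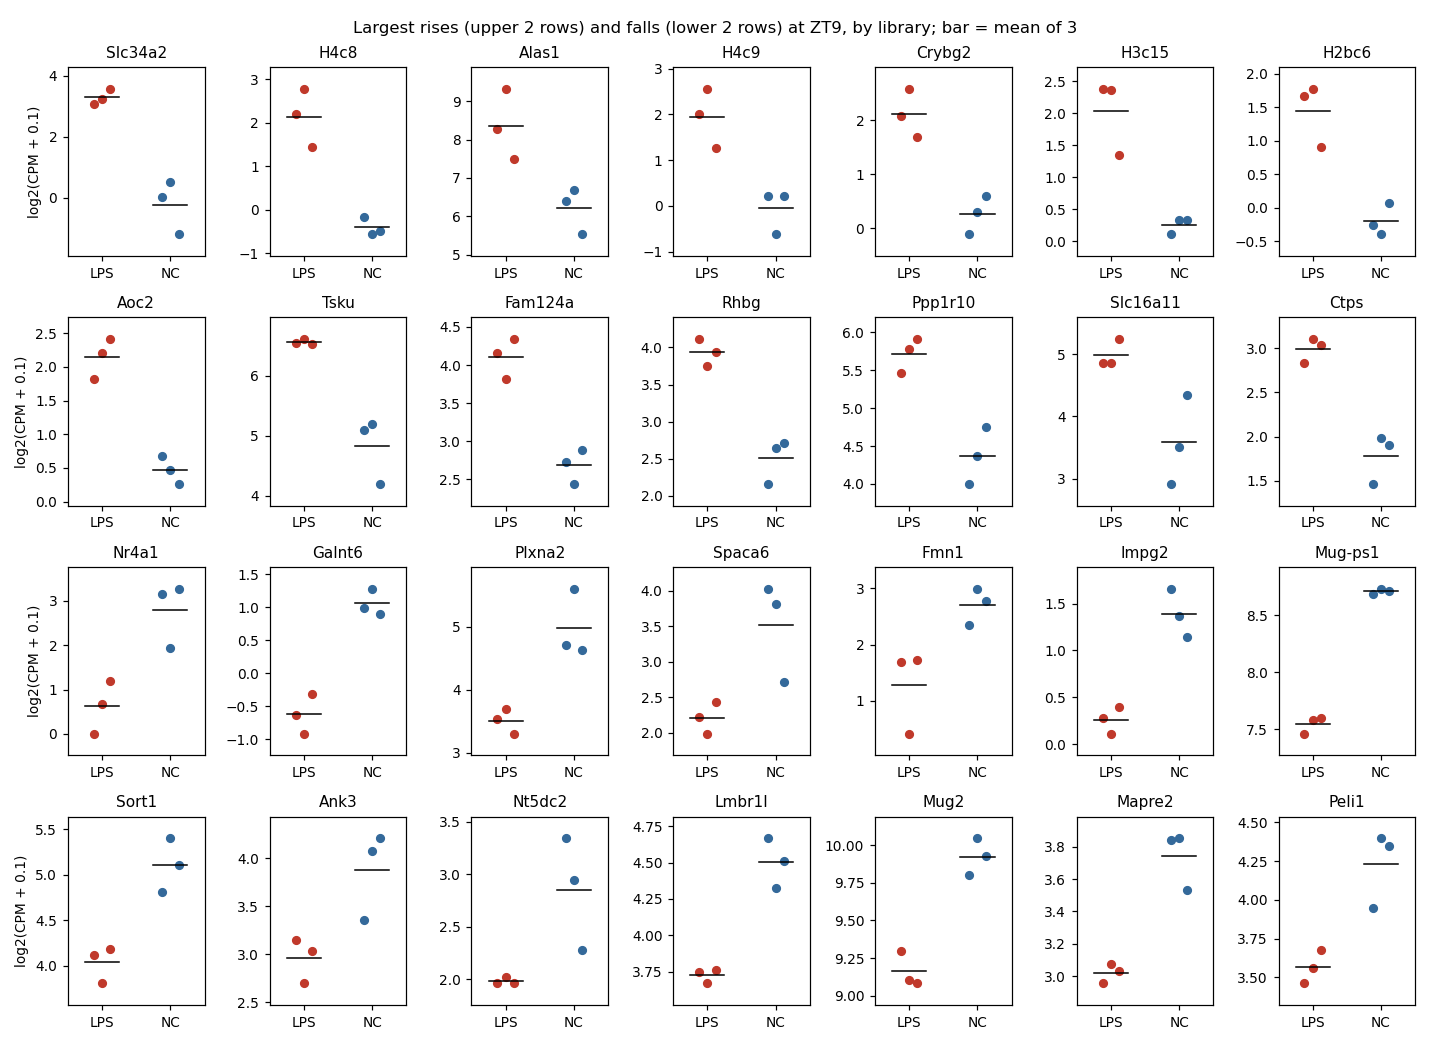
Each panel shows 1 gene, with log2(CPM + 0.1) on the y axis, the 3 LPS libraries in red on the left and the 3 NC libraries in blue on the right; bars are means of 3. The upper 2 rows hold the 14 largest rises and the lower 2 rows the 14 largest falls among passing genes averaging at least 1 CPM. Predicted genes were left out. No panel overlaps between LPS and NC, while the NC spread is wide in Slc16a11, Spaca6 and Nt5dc2.

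Several passing genes belong to sugar handling. Slc37a4 (chr9:44396946-44402966), which carries glucose 6-phosphate into the endoplasmic reticulum for the last step of glucose release, had 186, 132 and 166 CPM in LPS livers, against 50.8, 69.1 and 114 CPM in NC livers. NC replicate 3 came closest to the LPS libraries, and the log2 change was 1.05 ± 0.17 (edgeR adjusted p = 0.0061, and 0.187 in a fit of the 6 ZT9 libraries alone). Tkfc, the triokinase that phosphorylates glyceraldehyde in fructose breakdown, had 577, 527 and 646 CPM in LPS livers, against 278, 326 and 309.6 CPM in NC livers, with tight replicates in both arms and a log2 change of 0.94 ± 0.19 (edgeR adjusted p = 0.0236). Glyctk, the glycerate kinase of the same route, rose by 0.38 ± 0.09 on the log2 scale (edgeR adjusted p = 0.0463). In a list of 27 fructose and glucose-responsive genes these 3 rose and none fell, the median was 0.31, and 12 of 27 lay above all NC libraries (44.4% against 10.4%). That list was drawn up after values were seen, so its count is a description. Khk, the ketohexokinase that starts fructose breakdown, had 449, 431 and 477 CPM in LPS livers, against 242, 268 and 369 CPM in NC livers, which did not pass (log2 change 0.63 ± 0.17, edgeR adjusted p = 0.0798) and passed by DESeq2 (adjusted p = 0.02). In the list of gluconeogenesis and glucose handling 1 of 27 genes rose (Slc37a4) and none fell. At an unadjusted p under 0.05, 8 were higher and 1 lower, where 5.95% of all genes went each way.

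Other membrane and metabolic genes rose as well. Tsku, a protein the liver secretes, had 92.8, 97.7 and 91.9 CPM in LPS livers, against 34.0, 36.4 and 18.2 CPM in NC livers (log2 change 1.67 ± 0.36, edgeR adjusted p = 0.0389). Rhbg, an ammonium transporter, averaged 15.3 ± 1.95 CPM in LPS livers and 5.67 ± 1.13 CPM in NC livers (SD, n = 3 each). Ctps, which makes CTP, averaged 7.87 ± 0.761 CPM in LPS livers and 3.38 ± 0.632 CPM in NC livers, and Aoc2, an amine oxidase, 4.39 ± 0.903 CPM in LPS livers and 1.296 ± 0.200 CPM in NC livers. Slc16a11, a monocarboxylate transporter, had 28.8, 29.1 and 37.9 CPM in LPS livers and a wide NC range of 7.43, 11.3 and 20.1 CPM. Crybg2 rose by 1.96 ± 0.44 on the log2 scale, and its exons overlap those of Cd52 on the other strand, so without a stated strand setting the counts of the pair cannot be told apart. Fam124a, whose function is not well described, had the smallest p of all genes, with 17.8, 14.1 and 20.2 CPM in LPS livers, against 6.54, 5.33 and 7.32 CPM in NC livers (log2 change 1.44 ± 0.21, edgeR adjusted p = 0.00188). Its exons overlap Gm4131 on the other strand. Ppp1r10, a nuclear regulator of protein phosphatase 1, had 44.0, 55.0 and 60.1 CPM in LPS livers, against 15.9, 20.6 and 26.9 CPM in NC livers, and rose by 1.33 ± 0.21 (edgeR adjusted p = 0.0061). Of the passing genes, Pdxp, a pyridoxal phosphatase, had 27, 25 and 18 counts in LPS libraries and none in any NC library, and Ccdc96 had 4, 14 and 4 counts in LPS libraries against none in NC libraries; both were named after their values were seen.

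Of the ribosome assembly genes, 4 passed. Nop2 and Nolc1, nucleolar proteins of pre-rRNA processing, had 29.4, 37.6 and 29.97 CPM and 36.8, 47.3 and 38.3 CPM in LPS livers, against 18.8, 17.03 and 16.1 CPM and 22.04, 18.3 and 20.7 CPM in NC livers. No library of either gene crossed between the arms. Nop2 rose by 0.90 ± 0.21 and Nolc1 by 1.00 ± 0.24 on the log2 scale (edgeR adjusted p = 0.0449 and 0.0493). Surf6 and Noc4l, further nucleolar assembly factors, rose by 0.80 ± 0.18 and 0.66 ± 0.14 (edgeR adjusted p = 0.0449 and 0.0396). In a list of 85 ribosome biogenesis genes, drawn up after values were seen, these 4 rose and none fell by edgeR, while DESeq2 called 11 and edgeR without the 4 libraries apart called 9, all higher. In all, 46 of 85 lay above all NC libraries (54.1% against 10.4% of all genes) and none below. The median of the list was 0.26 on the log2 scale. Of the 81 members that did not pass, 42 lay above all NC libraries. The genes of the abundant nucleolar proteins nucleolin, nucleophosmin and fibrillarin did not pass. Ncl averaged 115 ± 8.67 CPM in LPS livers and 121 ± 9.93 CPM in NC livers, Npm1 72.3 ± 6.02 CPM in LPS livers and 80.5 ± 5.73 CPM in NC livers, and Fbl 23.7 ± 2.03 CPM in LPS livers and 24.4 ± 2.26 CPM in NC livers (SD, n = 3 each). None of 75 cytosolic ribosomal protein genes passed by edgeR (none higher and 2 lower at an unadjusted p under 0.05, 0 by DESeq2), with a median of -0.01. Leaving out 1 library at a time kept the ribosome biogenesis median between 0.24 and 0.34. As that list was drawn up after values of these libraries were seen, the range is a description. Among other RNA-handling genes, Pus1 (a tRNA pseudouridine synthase), Prmt5 (an arginine methyltransferase of splicing and histone proteins), Dhx30 (a helicase of mitochondrial ribosome assembly) and Eif2b4 (a subunit of the translation factor eIF2B) rose by 0.52, 0.46, 0.37 and 0.54 on the log2 scale.

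In the secretory pathway, Ern1 (chr11:106397620-106487796) rose, the gene of IRE1, the endoplasmic reticulum stress sensor that splices Xbp1 message. It had 131, 125 and 103 CPM in LPS livers, against 61.1, 60.1 and 75.4 CPM in NC livers, a log2 change of 0.87 ± 0.16 (edgeR adjusted p = 0.0112). It was the only passing gene of 26 in the list of endoplasmic reticulum stress, in which 11 lay above all NC libraries (42.3% against 10.4%) and none below, and the median was 0.21. Hspa5, the main chaperone of that compartment, had 605, 661 and 601 CPM in LPS livers and 467, 419.7 and 366 CPM in NC livers, and Xbp1 had 389, 358 and 285 CPM in LPS livers and 235, 258 and 212 CPM in NC livers. Neither passed, with edgeR adjusted p = 0.517 and 0.408, although neither overlapped. Lman1, a cargo receptor between the reticulum and the Golgi, rose by 0.46 ± 0.09 (232, 213 and 207 CPM in LPS livers, 151, 166 and 158 CPM in NC livers), and Gorasp1, a Golgi stacking protein, by 0.62 ± 0.12. They were the only passing genes of 51 in a list of translocation and export drawn up after values were seen. In it 15 members lay above all NC libraries and 1 below (29.4% and 1.96%, against 10.4% and 11.1% of all genes). Of 24 heat shock genes none passed by edgeR (5 higher and none lower at an unadjusted p under 0.05), while DESeq2 called Hspa8, the constitutive cytosolic chaperone, which had 951, 1173 and 986 CPM in LPS livers and 686, 822 and 579 CPM in NC livers.

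Nr4a1 (chr15:101253902-101274795) had the largest fall among passing genes averaging at least 1 CPM. It is an immediate early gene, one that cells switch on within minutes of a stimulus, and had 0.904, 1.50 and 2.18 CPM in LPS livers, against 8.71, 3.71 and 9.55 CPM in NC livers. The highest LPS library stayed under the lowest NC library, and the log2 change was -2.25 ± 0.50 (edgeR adjusted p = 0.0403). It was the only passing gene of 21 in the immediate early list. Of the 21, 10 lay below all NC libraries (47.6% against 11.1% of all genes) and none above, and the median was -0.70. Summed over the list, LPS livers had 296, 286 and 356 CPM, against 605, 432 and 498 CPM in NC livers. Fos had 0.362, 0.491 and 0.452 CPM in LPS livers and 3.18, 0.742 and 1.19 CPM in NC livers (edgeR adjusted p = 0.21). Egr1 and Junb, named after their values were seen, had 5.40, 5.16 and 15.97 CPM and 15.9, 12.2 and 20.2 CPM in LPS livers, against 83.5, 16.6 and 47.7 CPM and 39.8, 35.5 and 42.3 CPM in NC livers, and did not pass (edgeR adjusted p = 0.258 and 0.384). DESeq2 called Nr4a1 and Ier2.

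Murinoglobulins are plasma protease inhibitors of the alpha-2-macroglobulin family that mouse liver makes in bulk. Mug-ps1, annotated as a pseudogene, had 176, 192 and 194 CPM in LPS livers, against 412, 425 and 419.9 CPM in NC livers, with little spread within either arm. It fell by 1.16 ± 0.21 on the log2 scale (edgeR adjusted p = 0.0107). Mug2 had 630.3, 549 and 542 CPM in LPS livers, against 893, 1058 and 973 CPM in NC livers, and fell by 0.76 ± 0.12 (edgeR adjusted p = 0.0061). Mug1 did not pass, with 3384, 2638 and 2453 CPM in LPS livers and 2165, 2563 and 3783 CPM in NC livers, and Pzp, the murine alpha-2-macroglobulin relative, had 4566, 3703 and 3371 CPM in LPS livers and 4957, 5615 and 4289 CPM in NC livers. A2m, alpha-2-macroglobulin itself and at a far lower level, did not overlap and did not pass, with 0.754, 0.951 and 1.50 CPM in LPS livers and 0.397, 0.247 and 0.153 CPM in NC livers (log2 change 2.00 ± 1.95, edgeR adjusted p = 0.763). The Mug genes are close copies on chromosome 6 (Mug2 at chr6:122006729-122085968, Mug-ps1 at chr6:122176053-122248566), so reads may be split among them in ways the files do not show.

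Among the other falls, Plxna2, a semaphorin receptor, had 11.5, 12.8 and 9.75 CPM in LPS livers, against 26.1, 48.8 and 24.8 CPM in NC livers (log2 change -1.55 ± 0.30, edgeR adjusted p = 0.0214). Its partner in semaphorin binding, Nrp1, rose instead, to 62.5, 53.1 and 53.3 CPM in LPS livers, against 28.0, 26.7 and 39.0 CPM in NC livers (log2 change 0.85 ± 0.16, edgeR adjusted p = 0.0155). Sort1, the sortilin receptor that sorts lipoproteins and lysosomal cargo, averaged 16.4 ± 2.22 CPM in LPS livers and 34.9 ± 7.17 CPM in NC livers. P2rx4, an ATP-gated ion channel, had 54.9, 48.5 and 48.004 CPM in LPS livers, against 79.7, 83.1 and 72.1 CPM in NC livers, and Ank3, a membrane scaffold, 8.74, 6.38 and 8.09 CPM in LPS livers, against 10.2, 16.8 and 18.4 CPM in NC livers. Peli1, a ubiquitin ligase of Toll-like receptor signalling, had 10.9, 11.7 and 12.7 CPM in LPS livers, against 15.3, 20.96 and 20.3 CPM in NC livers, and fell by 0.68 ± 0.15 (edgeR adjusted p = 0.0396). Galnt6, Fmn1, Impg2, Spaca6, Nt5dc2, Lmbr1l and Mapre2 fell by 0.73 to 1.83 on the log2 scale. Of these, Galnt6 overlaps an antisense transcript and Nt5dc2 overlaps Stab1 on the other strand.

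**Figure D3:**
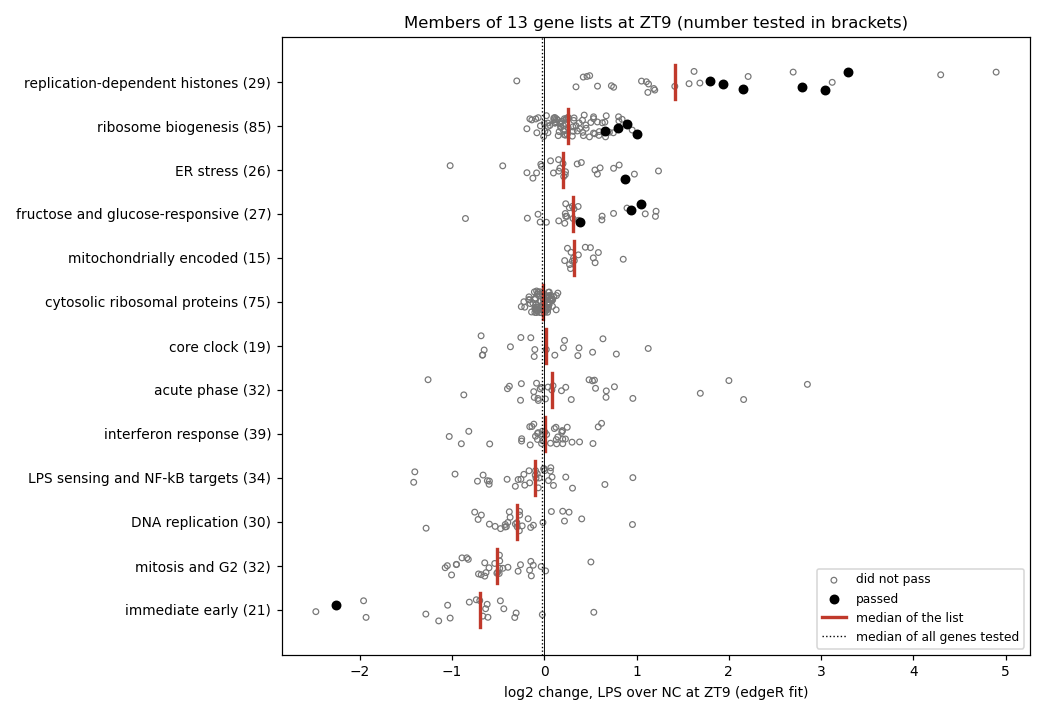
Each point is a gene placed by its log2 change of LPS over NC at ZT9, in rows for 13 gene lists; black points passed, open points did not, red bars are list medians and the dotted line is the median of all genes tested. Among the lists shown, replication-dependent histones lie furthest to the right (median 1.41) and immediate early genes furthest to the left (median -0.70), while the core clock, interferon and ribosomal protein lists centre near 0.

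None of the 19 core clock genes passed by edgeR at ZT9 (3 higher and 1 lower at an unadjusted p under 0.05), and their median log2 change was 0.02. Per2, a repressor of the clock, had 20.3, 27.7 and 20.8 CPM in LPS livers, against 5.53, 11.4 and 14.6 CPM in NC livers, without overlap. Its log2 change of 1.13 ± 0.30 missed the threshold (edgeR adjusted p = 0.089), and DESeq2 called it (adjusted p = 0.0153), as did edgeR without the 4 libraries that stand apart (adjusted p = 0.0358). Cry1, the cryptochrome named in the study's title, had 6.84, 9.70 and 7.46 CPM in LPS livers and 16.4, 12.1 and 9.09 CPM in NC livers, which overlapped (log2 change -0.65 ± 0.26, edgeR adjusted p = 0.292). The activators Arntl (BMAL1), Clock and Npas2 averaged 12.7 ± 3.17, 28.2 ± 2.64 and 3.81 ± 1.77 CPM in LPS livers and 20.2 ± 5.61, 33.6 ± 2.599 and 6.13 ± 2.33 CPM in NC livers. Clock lay below all NC libraries, and none of the 3 passed. The repressors Cry2, Per1, Per3, Nr1d1, Nr1d2 and Nfil3 overlapped between the arms, as did Bhlhe40, Bhlhe41, Ciart, Tef and Hlf.

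Within the NC arm the clock genes varied widely. Dbp, a clock-driven activator that peaks around this time, had 45.5, 22.8 and 33.0 CPM in LPS livers and 4.52, 15.4 and 45.3 CPM in NC livers. Rora, an activator of Arntl, had 27.0, 27.1 and 35.7 CPM in LPS livers and 52.1, 44.5 and 2.72 CPM in NC livers. NC replicate 3 was thus the highest NC library for Dbp and the lowest for Rora. Noct, a clock-controlled phosphatase, had 19.7, 20.9 and 15.0 CPM in LPS livers and 5.63, 4.62 and 10.8 CPM in NC livers (edgeR adjusted p = 0.167). Of 20 clock output genes only Alas1 passed, with 5 above and 2 below all NC libraries (25% and 10%, against 10.4% and 11.1% of all genes). Cyp7a1, the rate-limiting enzyme of bile acid synthesis, had 115, 140.2 and 85.7 CPM in LPS livers and 19.3, 52.2 and 53.5 CPM in NC livers, without overlap but short of the threshold (edgeR adjusted p = 0.402).

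Inflammatory gene lists held no passing gene at ZT9 in the edgeR fit of all 36 day-7 libraries. Without the 4 libraries that stand apart, the acute-phase list held 1 passing gene, higher in LPS livers. The list of LPS sensing and NF-kB targets then also held 1, likewise higher. In that fit 1.24% of all genes tested passed as higher. Of 32 acute-phase genes none passed by edgeR (1 higher and none lower at an unadjusted p under 0.05, 0 by DESeq2). Their median was 0.09, with 9 above all NC libraries (28.1% against 10.4%). The serum amyloid genes Saa1 and Saa2 had 13.96, 23.8 and 40.03 CPM and 5.40, 8.04 and 18.6 CPM in LPS livers, against 23.6, 20.96 and 18.98 CPM and 8.41, 6.43 and 5.34 CPM in NC livers, so the arms overlapped. Lcn2, the iron-sequestering lipocalin 2, had 7.63, 5.89 and 5.23 CPM in LPS livers and 1.86, 1.37 and 0.946 CPM in NC livers, without overlap, yet with an SE of 1.61 about its log2 change of 2.16 in the day-7 fit (edgeR adjusted p = 0.665). Fitted on the 6 ZT9 libraries alone it passed (edgeR adjusted p = 0.0299), and it was named after its values were seen. None of 39 interferon response genes passed by edgeR (1 higher and 3 lower at an unadjusted p under 0.05, 0 by DESeq2; median 0.01). In the list of LPS sensing and NF-kB targets none of 34 passed (1 higher and 2 lower at an unadjusted p under 0.05, 1 by DESeq2), the median was -0.10, and Tlr4 had 0.723, 0.829 and 0.707 CPM in LPS livers and 0.978, 0.824 and 1.01 CPM in NC livers. The co-receptor Cd14 averaged 3.50 ± 0.841 CPM in LPS livers and 1.80 ± 0.328 CPM in NC livers without passing (edgeR adjusted p = 0.731). None of 37 complement and coagulation genes and none of 22 antigen presentation genes passed by edgeR or DESeq2, with 0 and 0 higher and 3 and 0 lower at an unadjusted p under 0.05.

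Lipid lists were likewise without passing genes. Of 15 genes of polyunsaturated fatty acid synthesis none passed by edgeR (1 higher and 2 lower at an unadjusted p under 0.05, 0 by DESeq2), and the desaturases Fads1 and Fads2 averaged 455 ± 60.4 and 778 ± 129 CPM in LPS livers and 523 ± 90.0 and 755 ± 227 CPM in NC livers (SD, n = 3 each). Of 27 eicosanoid enzymes none passed (unadjusted, 2 higher and 2 lower at p under 0.05), while DESeq2 called Ptges, the prostaglandin E synthase, which had 0.392, 1.23 and 0.594 CPM in LPS livers and 0.122, 0.0549 and 0.122 CPM in NC livers. Lipogenesis (28 genes), cholesterol synthesis and uptake (27), fatty acid oxidation (34) and apolipoproteins (26) had medians of 0.27, -0.20, 0.05 and 0.08. At an unadjusted p under 0.05, 4, 0, 0 and 1 genes were higher and 2, 3, 1 and 0 lower. Over all genes tested, 5.95% went each way at that threshold. DESeq2 called 1 of the lipogenesis genes, Pklr, and none of the other 3 lists. Among 25 targets of NRF2, the regulator of antioxidant defence, none passed and 8 lay below all NC libraries (32% against 11.1%). DESeq2 called Gclc, a subunit of the glutathione-making ligase, which had 210.5, 252 and 189.5 CPM in LPS livers, against 619.5, 571 and 330.3 CPM in NC livers, and edgeR gave it an adjusted p of 0.0664.

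Markers of other liver cell types were measured beside these results. In whole tissue, fewer cells of a type and less RNA per cell cannot be told apart. Neutrophil markers summed to 21.9, 22.5 and 14.2 CPM in LPS livers, against 7.22, 13.1 and 5.80 CPM in NC livers, with 3 of 16 tested genes above all NC libraries (18.8% against 10.4% of all genes), none passing (1 higher at an unadjusted p under 0.05, 0 by DESeq2) and 2 of the 21 in the table at 0 counts. Of the 16, 15 had a positive log2 change and 1 a negative one, while 7705 of all 16544 genes tested had a positive one. The median of the 16 was 0.85, against -0.02 over all genes tested. Only these 16 of the 21 passed the filter on low counts, which a gene can pass through LPS libraries alone. The sign count and the median can thus be tilted upward by the filter. S100a9, a defining neutrophil gene, had 1.296, 1.63 and 0.905 CPM in LPS livers and 0.397, 1.81 and 0.305 CPM in NC livers. Cholangiocyte markers summed to 79.5, 128 and 135 CPM in LPS livers, against 73.5, 55.3 and 68.2 CPM in NC livers, and osteopontin, Spp1, was the 1 gene of the list that DESeq2 called, with 44.4, 86.3 and 89.3 CPM in LPS livers and 26.0, 16.04 and 28.0 CPM in NC livers. Without Spp1 the sums overlapped, at 35.1, 41.6 and 45.8 CPM in LPS livers and 47.4, 39.3 and 40.2 CPM in NC livers. Kupffer cell and macrophage markers summed to 456 to 623 CPM in LPS livers and 596 to 702 CPM in NC livers, with Clec4f, a Kupffer cell lectin, at 65.8, 73.2 and 53.5 CPM in LPS livers and 61.1, 76.2 and 77.3 CPM in NC livers. Sums for sinusoidal endothelium, stellate cells, plasma cells and erythroid cells overlapped between the arms, those for T, NK and B cells ran from 15.0 to 21.1 CPM in LPS livers and from 20.4 to 25.7 CPM in NC livers, and 9 of 23 markers of other abdominal tissues had no counts. No marker gene passed by edgeR. The part of these differences in the results above was not tested. Among the 15 mitochondrially encoded genes none passed by edgeR (5 higher and none lower at an unadjusted p under 0.05, 1 by DESeq2), 6 lay above all NC libraries (40% against 10.4% of all genes) and the median was 0.33.

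The ZT9 difference was tested against the mean difference at the other 5 times of day. By edgeR, 211 genes had an LPS effect at ZT9 that differed from that mean, 1.28% of the genes tested, 109 upward and 102 downward. The contrast uses the same ZT9 libraries as the comparison above, so it is no independent repeat of it. Hopx, a homeodomain protein without DNA binding, had 54.4, 70.0 and 56.1 CPM in LPS livers, against 27.7, 29.6 and 35.98 CPM in NC livers at ZT9, a log2 change of 0.95 ± 0.18. At the 5 other times its fitted change was negative, from -0.05 to -0.70, and the difference was 1.40 ± 0.20 (edgeR adjusted p = 0.00101). Fam124a differed by 1.56 ± 0.22 (edgeR adjusted p = 0.00101), with a mean change of -0.12 at the other times. Ern1 also changed sign, with 0.87 at ZT9 and -0.13 to -0.53 elsewhere, a difference of 1.14 ± 0.17 (edgeR adjusted p = 0.00127).

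The opposite pattern was seen in P2rx4 and Ank3. P2rx4 had a log2 change of -0.63 ± 0.12 at ZT9 and between 0.03 and 0.49 at the other times, a difference of -0.89 ± 0.13 (edgeR adjusted p = 0.00101). Ank3 had -0.96 ± 0.21 at ZT9 and between 0.10 and 0.77 elsewhere, a difference of -1.50 ± 0.23 (edgeR adjusted p = 0.00204). Gm15998, a predicted gene, had 3.68, 4.36 and 4.75 CPM in LPS livers, against 22.01, 18.02 and 15.3 CPM in NC livers at ZT9, and differed by -2.93 ± 0.49 (edgeR adjusted p = 0.00695). In P2rx4, Ank3 and Gm15998 the NC mean was at its daily high at ZT9, and in Hopx, Fam124a and Ern1 at its daily low, while the LPS mean was not at that extreme. These genes were taken for the smallest p of the difference between times, a choice that favours such patterns.

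**Figure D4:**
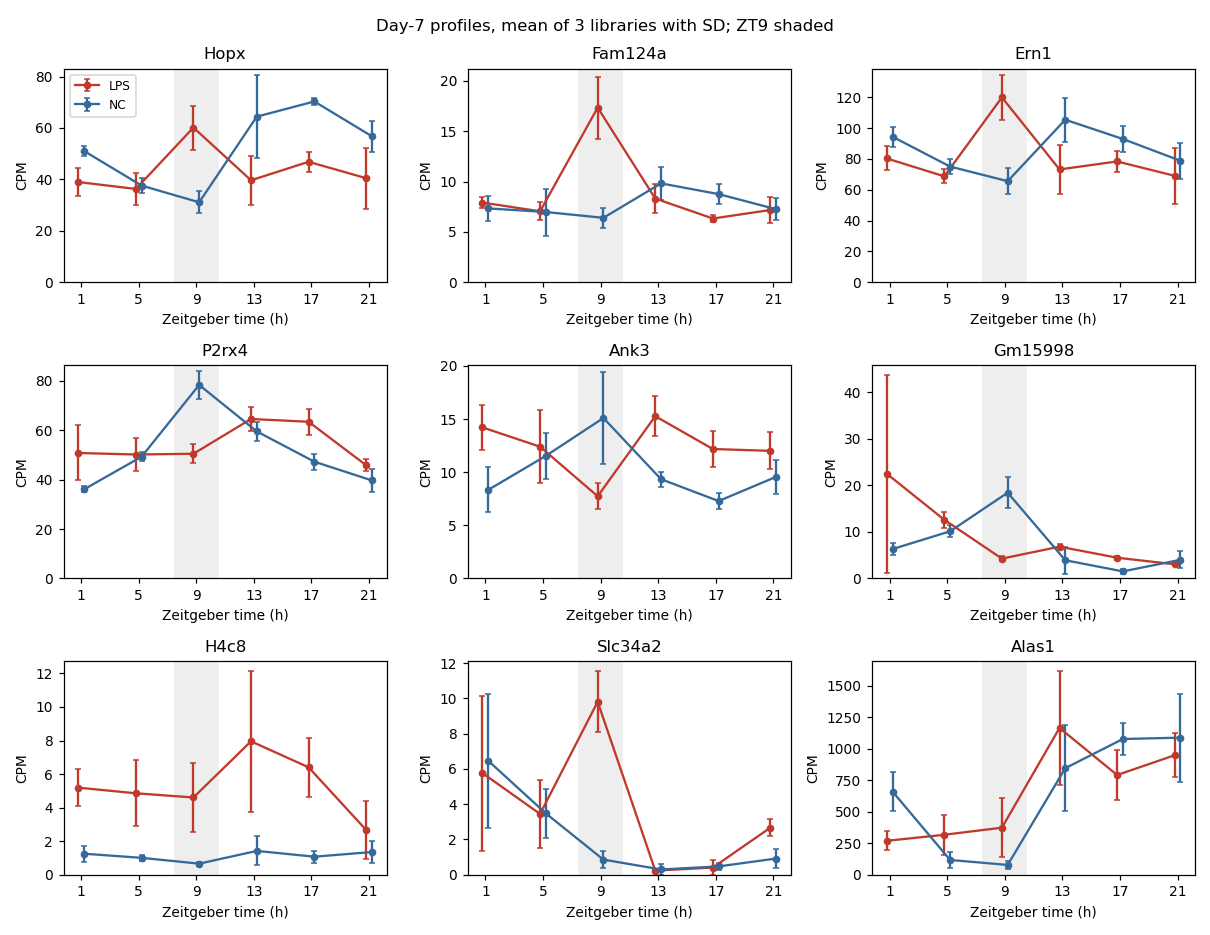
Mean CPM with SD of 3 libraries (y axis) against Zeitgeber time in hours (x axis) for 9 genes, LPS in red and NC in blue, with ZT9 shaded. In Hopx and Ern1 the LPS mean lies above the NC mean at ZT9 alone of the 6 times, in P2rx4 and Ank3 it lies below at ZT9 alone, and in H4c8 it lies above at all 6 times.

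H4c8 was not called for this difference. Its log2 change was 2.79 at ZT9 and 2.05, 2.26, 2.48, 2.56 and 0.97 at ZT1, ZT5, ZT13, ZT17 and ZT21, and the difference of 0.73 ± 0.56 did not pass (edgeR adjusted p = 0.551). H4c9 was positive at all 5 other times too, from 0.29 to 1.48. The tested genes of the histone list had medians of 0.45, 0.88, 1.12, 1.16 and -0.16 at those times. Immediate early genes, with a median of -0.70 at ZT9, had medians of 0.64, 0.33, 0.36, 0.06 and 0.26, and the ribosome biogenesis list, at 0.26, had -0.03, -0.06, -0.08, -0.16 and 0.06. No test was made of a list. Nr4a1 itself differed from the other times by -2.78 ± 0.55 (edgeR adjusted p = 0.0188), Slc34a2 by 3.33 ± 0.82 (edgeR adjusted p = 0.0451) and Alas1 by 2.27 ± 0.50 (edgeR adjusted p = 0.0318).

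**Figure D5:**
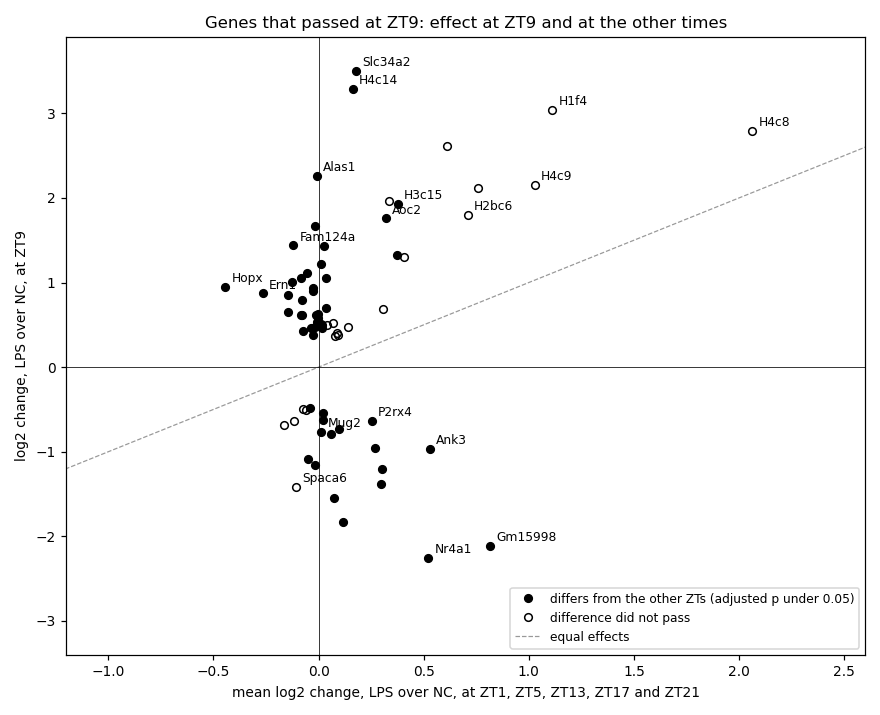
Each point is a gene that passed at ZT9 and had counts in both arms, with its mean log2 change at the 5 other times on the x axis and at ZT9 on the y axis; filled points differed from the other times (edgeR adjusted p under 0.05), open points did not pass that test, and the dashed line marks equal effects. H4c8 lies furthest to the right, with 2.06 elsewhere and 2.79 at ZT9, and Hopx, Ern1, P2rx4 and Ank3 lie in the quadrants of opposite sign.

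Of the 75, none also passed at ZT1, ZT5 or ZT17, while 5 passed at ZT13 and 5 at ZT21. Among these, 2 at ZT13 (Nrp1 and Hopx) and 2 at ZT21 (Gorasp1 and Nt5dc2) passed in the direction opposite to that at ZT9. The share of all genes tested that passed at those times is not given here. The counts therefore do not show a trait particular to the 75. Set against the daily range of the NC arm, the LPS mean at ZT9 was above every one of the 6 NC time means in 22 of the 52 higher genes and below every one in 10 of the 23 lower genes. In the remaining 30 and 13 it lay within the range that NC livers covered over the day. Slc34a2, Aoc2, Fam124a, Rhbg and Ern1 were of the first kind, and Alas1, Tsku, Hopx, Tkfc and Slc37a4 of the second. Passing at ZT9 itself favours an LPS mean outside the NC range. The share of all genes tested with such a mean was not computed, so these counts are a description.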

How the data were processed

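Libraries were made from poly(A) RNA taken up on oligo(dT) beads, with strand marking, and read in pairs, per the labels' protocols. Raw counts per gene symbol are what the authors deposited. Tools in the submitters' processing notes are STAR 2.5.2b, StringTie 2.2.1, SAMtools 1.3.1, FastQC 0.11.5 and DESeq2 1.38.1, on GRCm38, with no role stated; which program counted reads, with which strand setting, annotation and filters, is not given in the sources used here. All columns were mapped by the names in the labels. Counts of the 36 day-7 libraries were filtered (filterByExpr), scaled by TMM and fitted in edgeR 4.0.16 (R 4.3.3) as 12 group means (24 residual degrees of freedom). Adjusted p-values are Benjamini-Hochberg over 16544 genes at 0.05, and CPM are TMM-scaled. Errors of log2 changes are SE, computed back from the test as the absolute log2 change over the square root of its F statistic. They thus hold no information beyond the change and its test. In counts simulated for this comparison over 16347 genes, 72% of 100 changes of 1 and 90% of 100 changes of 2 (log2) were recovered, with 6 false calls. The changes were planted only in genes averaging above 1 CPM, and the groups otherwise had equal means. Recovery in genes below that level was thus not measured. No 2 libraries of a group agreed within sampling noise. DESeq2 1.42.0 was an alternative. Named genes were first the 14 largest rises and falls among passing genes with non-overlapping libraries and a mean of at least 1 CPM. Predicted genes were left out of this group. All core clock genes were added, with up to 6 passing and 3 other members of each list. The 6 genes with the smallest p for the difference between times were added as well. Some genes that this rule names are not reported here. Members and lists were chosen with earlier results of these data known, and 6 lists (ribosome biogenesis, cytosolic ribosomal proteins, translocation and export, fructose and glucose-responsive, haem synthesis, murinoglobulins) after values were seen. Of 225 named or passing genes, 222 had a RefSeq position (GRCm38.p6). Figures used matplotlib 3.10.9.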

Additional observations from a re-analysis of the deposited data

Results flagged for a closer look

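The LPS effect at ZT9 differed from the mean effect at the other 5 times of day in 211 genes by edgeR's test of the difference itself. The 6 genes with the smallest p differed by 1.4 (Hopx), 1.56 (Fam124a), -0.888 (P2rx4), 1.14 (Ern1), -1.5 (Ank3) and -2.93 (Gm15998) on the log2 scale. Each had non-overlapping LPS and NC libraries at ZT9, and Hopx and Ern1 were lower in LPS than in NC livers by their fitted change at all 5 other times. Ranking genes by this difference favours both traits, so neither adds support. Over all genes tested, 10.4% lay above and 11.1% below all NC libraries at ZT9. Groups of 3 were too small for a test of single outlying libraries.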

How the results depend on the processing

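With 3 libraries an arm, the number of genes that passed changed with the library left out, and some calls rest on few reads. Ccdc96, for example, had at most 14 counts in a library. RLE scaling called 73 genes, the replicate block 80, the 6 ZT9 libraries alone 67 and all 48 libraries 89, of which 73, 68, 24 and 63 were among the 75; in the 6 libraries alone 19 of 42 passing named genes kept their call. DESeq2 called 275 (164 higher, 111 lower), edgeR without a filter on low counts 23 (18 and 5), and edgeR without the 4 libraries apart 394 (216 and 178). A minimum log2 change of 1 left 0 (0 and 0), with 131 genes at an unadjusted p under 0.05. Leaving out each ZT9 replicate gave 0 to 68 genes, 0 to 37 higher and 0 to 31 lower; without NC replicate 2, where edgeR called 0, 1485 had an unadjusted p under 0.05. The cause was not tested. For the difference from the other times, the 211 genes became 668 by DESeq2 (346 and 322), 94 without a filter (53 and 41), 0 with the minimum change (0 and 0; 281 at an unadjusted p under 0.05), 184 with the replicate block, 7 to 185 without one replicate (5 to 81 higher, 2 to 104 lower), and 313 without the 4 libraries apart, 154 of them lower. The replicate numbers did not pair the libraries (correlations of deviations -0.0741, 0.0636 and 0.00442), and the block kept 68 of the 75 calls. Of 43 passing named genes, 0 kept their call without NC replicate 2 and 3 without LPS replicate 2. In 74 of the 75 passing genes the LPS and NC libraries did not overlap, which left little room for a change of sign. No passing named gene changed sign under any alternative. Genes that did not pass did so when single replicates were left out: Alb ranged from -0.136 to 0.0659, Bhlhe41 from -0.0906 to 1.301, Ciart from -1.004 to 0.359, Cry2 from -0.266 to 0.166, Fads2 from -0.159 to 0.279, Fbl from -0.104 to 0.0405, Ncl from -0.104 to 0.00583, Nr1d1 from -0.0219 to 0.517, Nr1d2 from -0.287 to 0.146, Per3 from -0.384 to 0.576, Rora from -0.684 to 0.352, Saa1 from -0.159 to 0.592, and Tef from -0.145 to 0.451. Per3 was -0.0203 with the replicate block. Mug1, at -0.01, was 0.00223 with RLE scaling and by DESeq2, 0.0142 without a filter, 0.00868 in the 6 libraries, 0.000468 in all 48, 0.00106 without the 4 libraries apart, and -0.159 to 0.264 without one replicate.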

Other observations

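Some further passing genes are named here after their values were seen, and they stand for no list. Ndufaf4, an assembly factor of mitochondrial complex I, rose by 0.62 on the log2 scale, and Ndufa7, a subunit of it, by 0.40. Among larger changes, Zscan22, a zinc finger protein, rose by 1.11 and Trim7, a ubiquitin ligase, by 1.06, and the predicted gene Gm18840 had no counts in LPS libraries and 48, 9 and 40 in NC libraries. Aen, a nuclease induced by p53, rose by 0.68, Otulin, which removes linear ubiquitin chains, by 0.43, Ntmt1, a protein N-terminal methyltransferase, by 0.70, and Ank, a pyrophosphate transporter, by 0.61. Hs6st1, a heparan sulfate sulfotransferase, rose by 0.48. Among the falls, Zfand5, a zinc finger protein linked to proteasome activity, changed by -0.63, the kinase scaffold Spag9 by -0.54, the receptor phosphatase Ptprk by -0.50 and Rabgap1, a regulator of Rab GTPases, by -0.50. For each gene in this paragraph the 3 LPS and the 3 NC libraries did not overlap.

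Further liver lists held no gene that passed by edgeR. Their counts of higher and lower genes are at an unadjusted p under 0.05, which 5.95% of all genes reached each way. Of 25 genes of bile acid synthesis and transport, 3 were higher and 2 lower (unadjusted p under 0.05), while DESeq2 called Nr1h4 (the bile acid receptor FXR) and Slc10a1 (the bile salt importer NTCP), both higher in LPS livers. Of 39 genes of amino acid catabolism and the urea cycle, 4 were higher and 4 lower, and DESeq2 called Glul, which makes glutamine, as higher and Csad, of taurine synthesis, as lower. Among 34 xenobiotic P450 and receptor genes 1 was higher and 1 lower, among 41 phase II enzymes none and 2, among 47 growth hormone and sex-patterned genes none and 1, among 26 glucocorticoid-responsive genes none and 3, and among 21 major urinary protein genes none either way. DESeq2 called 0 in each of these 5 lists.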
